A study of Mus musculus with 6 samples.

Results

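Klf9, Hsd11b1 and Thrsp are 3 genes tied to glucocorticoid and thyroid hormone. They were taken as the features of the array table whose platform gene symbol is one of these names, which gave 3 features, 1 per gene, among 10500 features and 6370 named genes. The genes were chosen by their intensities in this comparison, low in proliferating and higher in differentiated cultures of satellite cells (the resident stem cells of adult muscle), so their difference between the 2 groups is given below as a description, with no test. The cells came from hind limb muscles, pooled within each of 3 adult male Swiss Webster mice, and each mouse gave 1 differentiated and 1 proliferating culture, for 6 one-colour CodeLink arrays in all. Arrays with the same number in their labels were taken as the 2 cultures of 1 mouse. Differentiated cultures had spent 72 hours without bFGF in medium with horse serum at 10% and insulin at 1 mM, as labelled. Proliferating cultures were harvested in growth medium with bFGF at 6.6 ng/ml. Cells of both groups had first been expanded with bFGF and, in the isolation steps, chick embryo extract, and consisted of mixed myoblast clones left after preplating to remove fibroblasts. The protocols in the labels list no added glucocorticoid or thyroid hormone, and the hormone content of the serum and the extract is not given in the sources used here.

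Glucocorticoids and thyroid hormone enter cells and act through nuclear receptors that bind DNA and change the transcription of target genes. Local enzymes set how much active hormone a cell sees, since an inert circulating form can be converted to the active one inside the target tissue. In skeletal muscle, thyroid hormone is known to favour differentiation and fast fibre properties, and glucocorticoids are known to restrain growth and to drive breakdown of muscle protein. Hsd11b1 encodes the enzyme of the endoplasmic reticulum that regenerates active glucocorticoid from its inert form. Klf9 encodes a zinc finger transcription factor of the Krüppel-like family, which binds GC-rich elements and is induced by both hormones. Thrsp, also called Spot 14, encodes a small protein first found as a thyroid hormone-induced product of rat liver and tied to fatty acid synthesis.

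The promoter windows of the 3 genes are shown because their features were all higher in the same 3 cultures. Each runs from 250 bases before to 50 bases after the gene start and is written 5′ to 3′ on the gene's strand, from RefSeq on GRCm38.p6. Capitals mark CCAAT boxes on either strand (CCAAT or ATTGG), the only motif of the 9 searched with a match in all 3 windows. The Klf9 window is chr19:23140976-23141275 on the plus strand, the Hsd11b1 window chr1:193242311-193242610 on the minus strand and the Thrsp window chr7:97417501-97417800 on the minus strand.
Klf9: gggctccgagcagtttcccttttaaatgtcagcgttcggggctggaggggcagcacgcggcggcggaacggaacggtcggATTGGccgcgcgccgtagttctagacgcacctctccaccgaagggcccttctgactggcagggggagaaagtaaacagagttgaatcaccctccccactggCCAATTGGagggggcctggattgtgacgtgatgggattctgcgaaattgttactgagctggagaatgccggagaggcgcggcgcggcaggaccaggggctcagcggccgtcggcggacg
Hsd11b1: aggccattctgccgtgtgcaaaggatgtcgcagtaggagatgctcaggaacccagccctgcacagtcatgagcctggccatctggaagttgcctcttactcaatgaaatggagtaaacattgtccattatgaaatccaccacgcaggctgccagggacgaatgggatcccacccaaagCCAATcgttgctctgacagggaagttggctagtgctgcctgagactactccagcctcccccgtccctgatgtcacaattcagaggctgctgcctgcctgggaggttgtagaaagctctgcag
Thrsp: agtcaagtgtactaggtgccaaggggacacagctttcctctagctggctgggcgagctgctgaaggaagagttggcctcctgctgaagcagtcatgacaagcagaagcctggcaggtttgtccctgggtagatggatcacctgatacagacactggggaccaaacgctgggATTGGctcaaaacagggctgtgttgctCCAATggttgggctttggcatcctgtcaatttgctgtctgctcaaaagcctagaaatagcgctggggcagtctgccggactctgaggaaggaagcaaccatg

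All 3 windows held a CCAAT box, the letters bound by the factor NF-Y, as did 37.4% of 32851 mouse promoter windows of the same length. Hsd11b1 had 1 match, beginning 72 bases before the gene start. Thrsp had 2, beginning 79 and 52 bases before it. Klf9 had 3, beginning 170, 69 and 66 bases before it, the last 2 overlapping each other. The CACCC box (CACCC or GGGTG), a kind of element that Krüppel-like factors bind, had 1 match each in the Klf9 and Hsd11b1 windows and 0 in the Thrsp window, and 57.5% of all windows held it. No window of the 3 had the glucocorticoid receptor half-site (AGAACA or TGTTCT, 19% of all windows) or the nuclear receptor half-site of thyroid hormone elements (AGGTCA or TGACCT, 16.3%). Their longer forms contain these letters and so had no match either, the palindrome of AGAACA, any 3 bases and TGTTCT being in 0.00913% of all windows and the direct repeat of AGGTCA, any 4 bases and AGGTCA in 0.0152%. The GC box (GGGCGG or CCGCCC, 35.7%), the E-box CAGCTG of the myogenic factors (16.3%) and the TATA box (TATAAA or TTTATA, 13.6%) also had 0 matches in each of the 3. Each motif was searched on both strands, and these searches say only which letters stand in these windows. Klf9 had the highest GC content of the 3, at 63.3%, against 54.7% for Hsd11b1 and 54.3% for Thrsp and a median of 52.7% over all windows.

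Klf9 had normalised intensities of 2.37, 3.54 and 2.82 in differentiated cultures of mice 1, 2 and 3, and of 0.243, 0.246 and 0.136 in the proliferating cultures of the same mice. The groups did not overlap, and the lowest differentiated value was 9.65 times the highest proliferating one. Klf9 averaged 2.91 ± 0.588 in differentiated and 0.208 ± 0.0625 in proliferating cultures (SD, n = 3 each). Its mean log2 difference, differentiated minus proliferating, was 3.84 ± 0.44, or 14.3-fold, where the error, like every SE below, is that of the limma fit with group as its only term. Within mice the log2 difference was 3.29 in mouse 1, 3.85 in mouse 2 and 4.38 in mouse 3. The largest of these belonged to the mouse whose proliferating culture was the dimmest for Klf9.

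Hsd11b1 had intensities of 4.05, 2.93 and 4.50 in differentiated cultures of mice 1, 2 and 3, and of 0.320, 0.639 and 0.436 in their proliferating cultures. Here too the groups stood apart, with the lowest differentiated value 4.58 times the highest proliferating one, both from mouse 2. The means were 3.82 ± 0.809 in differentiated and 0.465 ± 0.161 in proliferating cultures (SD, n = 3 each). The mean log2 difference was 3.07 ± 0.45 (SE), or 8.42-fold, and it was 3.66, 2.20 and 3.37 within mice 1, 2 and 3. Mouse 2 thus had both the lowest differentiated and the highest proliferating value of Hsd11b1, while for Klf9 it had the highest value in each group.

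Thrsp had intensities of 2.22, 0.821 and 0.847 in differentiated cultures of mice 1, 2 and 3, and of 0.0755, 0.0838 and 0.0814 in their proliferating cultures. The differentiated culture of mouse 1 stood above the other 2, by 1.41 on the log2 scale over their mean. The 3 proliferating values lay close together, within 1.11-fold of each other. The means were 1.29 ± 0.797 in differentiated and 0.0802 ± 0.00428 in proliferating cultures (SD, n = 3 each), and the mean log2 difference was 3.85 ± 0.50 (SE), or 14.4-fold. It was 4.88 in mouse 1, 3.29 in mouse 2 and 3.38 in mouse 3.

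**Figure D1:**
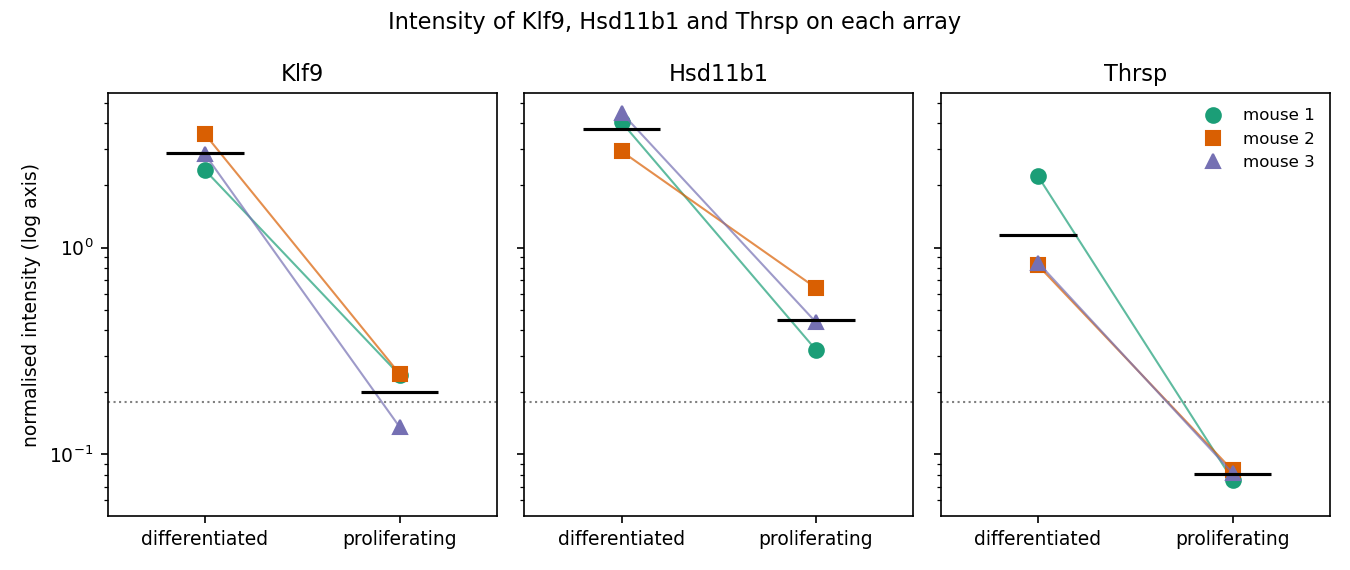
Normalised intensity on a log axis for Klf9, Hsd11b1 and Thrsp on each of the 6 arrays, with differentiated cultures left of proliferating ones. Points and lines join the cultures of each mouse, black bars are geometric means, and the dotted line marks 0.179, the 25th percentile of all positive values. The groups stand apart for each gene, and all 3 proliferating values of Thrsp lie below the dotted line.

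The proliferating values bear on how far these folds can be read. The 25th percentile of positive values over all arrays was 0.179. All 3 proliferating values of Hsd11b1 lay above it, 2 of 3 did so for Klf9, and 0 of 3 for Thrsp. With a pseudocount of 0.179 in place of the floor used for low values, the log2 differences were 2.99 for Klf9, 2.65 for Hsd11b1 and 2.38 for Thrsp. No detection call was used, and intensities of different features are not comparable as levels, so the 3 genes are not ranked against each other. In these bulk cultures, fewer cells expressing a gene and less RNA of it per cell cannot be told apart.

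The mice ordered differently for each gene. Among differentiated cultures, mouse 1 was lowest for Klf9 and highest for Thrsp, and mouse 3 was highest for Hsd11b1. Within a mouse the 3 log2 differences ranged from 3.29 to 4.88 in mouse 1, from 2.20 to 3.85 in mouse 2 and from 3.37 to 4.38 in mouse 3. The SD of the within-mouse differences was 0.54 for Klf9, 0.77 for Hsd11b1 and 0.89 for Thrsp. On leaving out 1 array or both arrays of 1 mouse, the difference ranged from 3.56 to 4.11 for Klf9, from 2.78 to 3.51 for Hsd11b1 and from 3.34 to 4.13 for Thrsp.

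Across all features, the differentiated group lay wholly above the proliferating group for 10.9% and wholly below it for 9.8% of the 10128 with 6 values. The rule chose the 3 genes on this contrast, so nothing is read from their place among that 10.9%. The limma fit with group as its only term called 132 of 10186 features, or 1.3%, at an adjusted p under 0.05. With mouse as a fixed block (the fixed-mouse fit) it called 1.43%. With mouse as a random effect (the random-mouse fit) it called 5.07% higher and 5.28% lower in differentiated cultures. The fit with group only called 179 features without the proliferating array of mouse 1 and 59 without the differentiated one. It called 0 without any other single array, with 988 to 1518 features at an unadjusted limma p under 0.05. The median log2 difference over all features was 0.20, and 0.04 after quantile normalization.

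Label checks used marker lists. Tmod4, which caps sarcomeric thin filaments, rose in differentiated cultures by 4.59, and Vcam1, by which unfused myoblasts adhere, fell by 3.13 (limma adjusted p = 0.0335 for each, and 0.0495 in the fixed-mouse fit). On leaving out 1 array, the group-only call of Vcam1 was lost for 6 of 6 arrays (limma adjusted p from 0.0516 to 0.156) and that of Tmod4 for 5 of 6 (0.0479 to 0.156 over the 6). Of the 8 measured myoblast markers, 4 were lower and 2, Pax3 and Itga7, higher in differentiated cultures of all 3 mice, with a median log2 difference of -0.50. The myogenic factor Myf5 overlapped between groups, and Cdh15, a cadherin of satellite cells, differed by -0.05. All 12 measured myotube markers were higher in differentiated cultures of all 3 mice, with a median log2 difference of 2.63. The proliferating array of mouse 1 exceeded the mean of proliferating arrays 2 and 3 by over 1 on the log2 scale for 10 of these 12 markers, with a median excess of 1.97, against 0.32 over all features. The same quantity was 0.41 for Klf9, -0.72 for Hsd11b1 and -0.13 for Thrsp. These 3 were chosen for low values in proliferating cultures, so no contrast with the markers is read from it. It was over 1 for 3 of 26 other glucocorticoid-responsive genes, 5 of 18 other thyroid hormone-responsive genes and 20.9% of all features. This excess was over 1 for 1 of 13 genes of glucocorticoid receptor, chaperones and steroid access. For genes of thyroid hormone transport and partners it was so for 4 of 13. Without the proliferating array of mouse 1, the differences of Klf9, Hsd11b1 and Thrsp were 3.97, 2.83 and 3.81.

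Hsd11b1 and Thrsp are also known as genes of fat cells, so markers of adipocytes and of other cells that the cultures could hold were read beside them. The summed intensity of 9 measured adipocyte markers ranged from 5.34 to 7.27 in differentiated and from 1.56 to 5.97 in proliferating cultures. Fabp4, the fatty acid binding protein of adipocytes, had 0.327, 0.0318 and 1.21 in differentiated and 2.22, 0.318 and 0.141 in proliferating cultures of mice 1, 2 and 3. Cidea, a lipid droplet protein, stood 3.46 apart on the log2 scale (limma adjusted p = 0.0908, and 0.0109 in the random-mouse fit), and Slc2a4, the insulin-responsive glucose transporter of both muscle and fat, had 1.88 (0.134 and 0.0169). These were 2 of the 9 with no overlap of the groups, both higher, beside 10.9% of all features, and the other 7 overlapped. The median difference of the 9 was 0.29. Ucp1, the uncoupling protein of brown fat, was at most 0.0853 in differentiated and 0.0602 in proliferating cultures, below the 25th percentile in each. The fibroblast sum was nearly all the transcription factor Tcf21, and the other 10 markers summed to 3.00 to 3.97 in differentiated and 4.39 to 5.32 in proliferating cultures. With Tcf21 the 11 summed to 52.9 to 191 in differentiated and 43.1 to 82.0 in proliferating cultures, so their sum depends on that 1 probe. Among the other 10, Fbln1 alone had 0.549, 0.110 and 0.489 in differentiated and 2.19, 3.01 and 3.47 in proliferating cultures. The sum of the 10 thus depends on Fbln1 in turn, and 6 of the 10 had a positive difference. Such sums add probes whose levels are not comparable and serve only to set arrays side by side. The 11 had a median log2 difference of 0.92, with 3 higher and 1 lower in all 3 mice. Col1a2, a collagen, had 0.355, 0.222 and 0.372 in differentiated and 0.0663, 0.187 and 0.158 in proliferating cultures, with no overlap, and did not pass (limma adjusted p = 0.299, or 0.0903 in the random-mouse fit). Fbln1, a matrix protein, was the 1 that was lower in all 3 mice, and fell by 3.20 in the random-mouse fit (limma adjusted p = 0.0114, with 0.0649 with group alone and 0.0760 in the fixed-mouse fit). The 7 macrophage markers summed to 0.671 to 7.41 in differentiated and 0.816 to 2.00 in proliferating cultures. The highest of these sums held 6.72 from the Fc receptor gene Fcgr3 in the differentiated culture of mouse 2, and without Fcgr3 the sums were 0.584 to 1.66 in differentiated and 0.664 to 1.81 in proliferating cultures. Tyrobp, an adaptor of myeloid cells, was below 0.179 in 2 of 3 differentiated and 3 of 3 proliferating cultures. The part of such cells in the 3 genes' difference was not tested.

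The glucocorticoid pathway was read next, starting with what lets a cell receive the hormone. Nr3c1, the glucocorticoid receptor, had intensities of 0.671, 0.702 and 0.483 in differentiated and of 0.119, 0.0804 and 0.201 in proliferating cultures of mice 1, 2 and 3. The groups did not overlap, and the log2 difference was 2.30 ± 0.48 (SE). The proliferating values of mice 1 and 2 lay below the 25th percentile of 0.179, and with the pseudocount the difference was 1.36. Nr3c1 did not pass with group alone (limma adjusted p = 0.0668) or in the fixed-mouse fit (0.0789), and it rose in the random-mouse fit (limma adjusted p = 0.0117). Hsd11b2, the enzyme that inactivates glucocorticoid, had 0.411, 0.0886 and 0.100 in differentiated against 0.136, 0.186 and 0.0628 in proliferating cultures, with overlapping groups (limma adjusted p = 0.861). The receptor's chaperones and co-chaperones had differences from -0.79 for Hsp90aa1 to 0.19 for Stip1, with -0.75 for Fkbp4, -0.57 for Ptges3, -0.55 for Dnajb1 and -0.03 for Hspa8, and none passed in any of the 3 fits. Of the 13 measured genes of receptor, chaperones and steroid access other than Hsd11b1, 0 passed with group alone. In the random-mouse fit 1 rose and 0 fell, against the 5.07% and 5.28% of all features, and the median difference was -0.54 against 0.20 for all features.

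Glucocorticoid-responsive genes had differences of both signs. Of 26 measured besides Klf9 and Hsd11b1, 0 passed with group alone or in the fixed-mouse fit, and 3 rose and 1 fell in the random-mouse fit, beside 5.07% and 5.28% of all features. Their median log2 difference was 0.74, beside 0.20 for all features. The list mixes genes that glucocorticoids induce with genes that they repress, such as Ccl2, so this median gives no direction of hormone response. Fkbp5, a co-chaperone that glucocorticoids induce in most tissues, had 0.566, 0.268 and 0.707 in differentiated and 0.854, 0.435 and 0.667 in proliferating cultures, a difference of -0.40 ± 0.52 (SE, limma adjusted p = 0.799). The clock gene Per1 and the kinase Sgk1, also classical targets, had differences of -0.27 ± 0.45 and -0.12 ± 0.50. Tsc22d3, the glucocorticoid-induced leucine zipper, had 18.0, 43.5 and 19.5 in differentiated and 16.7, 15.7 and 9.36 in proliferating cultures. Its groups did not overlap, yet its difference of 0.88 ± 0.51 did not pass (limma adjusted p = 0.481, or 0.162 in the random-mouse fit). Dusp1, a phosphatase that damps MAP kinases, had 1.26 ± 0.52 and was higher in 3 of 3 mice (limma adjusted p = 0.309 and 0.0624).

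The genes of that list that passed in the random-mouse fit were of several kinds. Fbxo32, the ubiquitin ligase atrogin-1 of muscle wasting, had 0.846, 1.44 and 0.582 in differentiated and 2.86, 4.11 and 2.48 in proliferating cultures. Its difference was -1.79 ± 0.49 (group-only SE), and it fell in the random-mouse fit (limma adjusted p = 0.0151, and 0.130 with group alone). Ccl2, a chemokine that glucocorticoids are known to repress, had 4.97, 8.31 and 10.5 in differentiated and 2.23, 0.987 and 1.33 in proliferating cultures. It rose by 2.40 in the same fit (limma adjusted p = 0.0128, and 0.0668 with group alone). Glul, which makes glutamine, and the cell cycle inhibitor Cdkn1a rose by 1.59 and 1.32 in that fit (limma adjusted p = 0.0305 and 0.0426, with 0.231 and 0.268 with group alone). Pdk4, Cebpd, Cebpb, Klf15 and Foxo1, which glucocorticoids induce in several tissues, had differences of 1.17, 1.15, 0.65, 0.83 and 0.12, and none passed in any of the 3 fits.

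**Figure D2:**
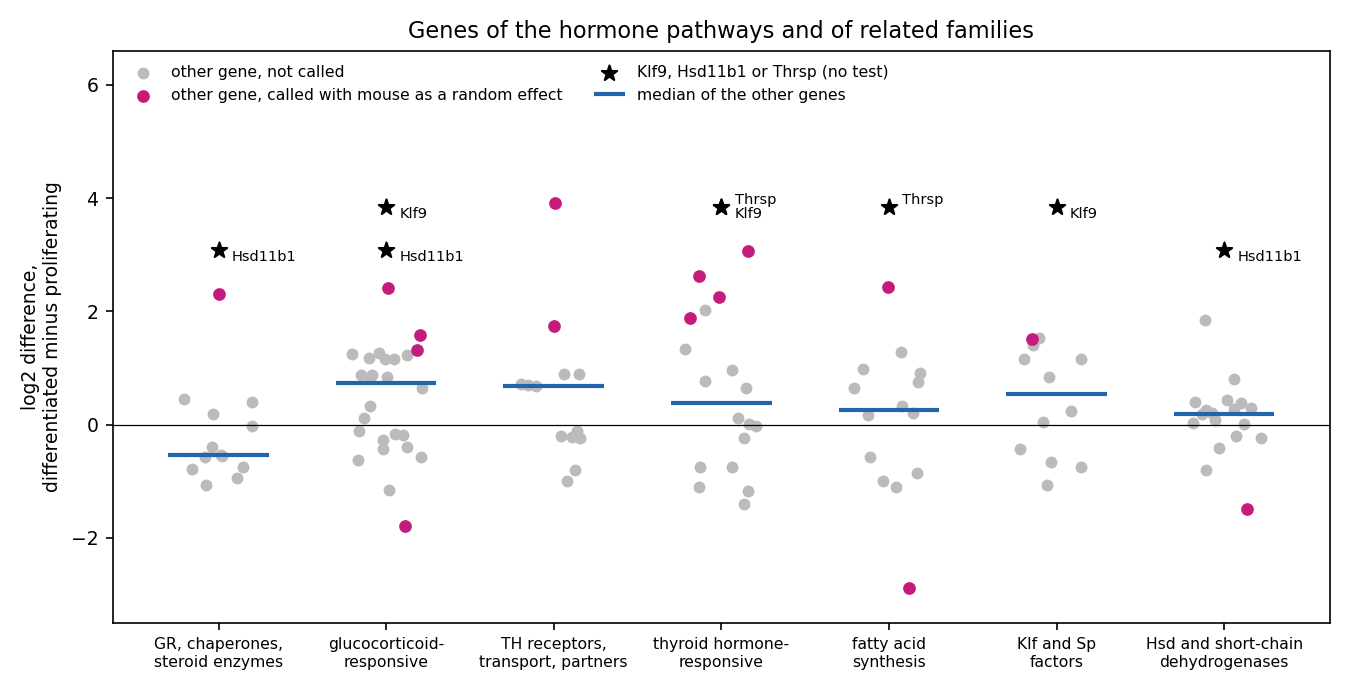
Log2 difference, differentiated minus proliferating, of each measured gene in 7 lists, with blue lines at the median of the genes other than Klf9, Hsd11b1 and Thrsp. Stars are those 3 genes, shown without a test, and pink points the other genes that passed in the random-mouse fit. The 7 list medians lie between -0.54 and 0.74, and the highest of the other genes are Crym at 3.92 and Ucp3 at 3.06.

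On the thyroid hormone side, the array named 13 genes of hormone activation, transport and receptor partners. Crym, a cytosolic protein that binds thyroid hormone, had 4.69, 17.4 and 13.3 in differentiated and 3.40, 0.282 and 0.326 in proliferating cultures of mice 1, 2 and 3. The within-mouse difference was small in mouse 1, at 0.46, and reached 5.95 in mouse 2 and 5.35 in mouse 3. Crym differed by 3.92 ± 0.99 (group-only SE). It rose in the random-mouse fit (limma adjusted p = 0.0369) and did not pass with group alone (0.106), although it did without the proliferating array of mouse 1 (5.08, limma adjusted p = 0.0299). Slc7a8, an amino acid transporter that also carries thyroid hormone, rose by 1.74 in the random-mouse fit (limma adjusted p = 0.0443, and 0.166 with group alone). Its within-mouse difference was 0.56 in mouse 1, 2.93 in mouse 2 and 1.74 in mouse 3. Dio2, the deiodinase that makes active hormone in muscle, had 0.465, 0.401 and 1.24 in differentiated and 0.507, 0.834 and 0.835 in proliferating cultures, so the groups overlapped (difference -0.20 ± 0.55). Dio1, the deiodinase of liver and kidney, had 0.296, 0.0366 and 0.0385 in differentiated and 0.161, 0.0428 and 0.0983 in proliferating cultures, and its groups overlapped as well (-0.23 ± 0.89). The receptor partners Rxra and Rxrb had differences of 0.72 and 0.90, each higher in 3 of 3 mice, and neither passed (limma adjusted p = 0.564 and 0.407, or 0.185 and 0.0940 in the random-mouse fit). In all, 0 of 13 passed with group alone and 2 rose and 0 fell in the random-mouse fit, beside 5.07% and 5.28% of all features. The median difference was 0.68, beside 0.20 for all features.

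Among 18 measured thyroid hormone-responsive genes other than Klf9 and Thrsp, 0 passed with group alone, and 4 rose and 0 fell in the random-mouse fit, beside 5.07% and 5.28% of all features. The median difference was 0.38, beside 0.20 for all features. Ucp3, a mitochondrial carrier of muscle, had 1.96, 0.324 and 0.652 in differentiated and 0.120, 0.120 and 0.0490 in proliferating cultures. Like Thrsp it was highest in the differentiated culture of mouse 1, and all its proliferating values lay below 0.179. Its difference was 3.06 ± 0.72 (group-only SE), and it rose in the random-mouse fit (limma adjusted p = 0.0151, and 0.0911 with group alone). Atp2a1, the calcium pump of fast fibres, Myh6, the alpha myosin of heart muscle, and Slc2a4 rose by 2.62, 2.24 and 1.88 in that fit (limma adjusted p = 0.0463, 0.0281 and 0.0169). Myh6 did so at low intensities, of 0.244, 0.312 and 0.104 in differentiated and 0.0958, 0.0264 and 0.0294 in proliferating cultures. The within-mouse difference of Atp2a1 was 0.48 in mouse 1, 4.50 in mouse 2 and 2.88 in mouse 3. Me1, malic enzyme and a classical target in rat liver, had the opposite sign, with 2.67, 4.17 and 1.93 in differentiated and 3.98, 8.91 and 6.03 in proliferating cultures. Its difference of -1.11 ± 0.50 did not pass (limma adjusted p = 0.352, or 0.0803 in the random-mouse fit).

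Thrsp is tied to fatty acid synthesis, and 14 other genes of that process and its regulation were measured. With group alone 0 passed, and in the random-mouse fit 1 rose and 1 fell, beside 5.07% and 5.28% of all features. Fads2, a desaturase of long fatty acids, had 0.521, 0.246 and 0.940 in differentiated and 2.76, 3.17 and 5.56 in proliferating cultures. Its difference was -2.89 ± 0.59 (group-only SE). It fell in the fixed-mouse fit (limma adjusted p = 0.0495) and in the random-mouse fit (limma adjusted p = 0.00662), and missed the threshold with group alone (0.0642). Acss2, which makes acetyl-CoA from acetate, rose by 2.44 in the random-mouse fit (limma adjusted p = 0.0371, and 0.167 with group alone). It also passed with group alone when the proliferating array of mouse 1 was left out (3.27, limma adjusted p = 0.0375). Mid1ip1, the closest relative of Thrsp in the genome, had 25.7, 10.8 and 22.8 in differentiated and 10.3, 9.14 and 8.62 in proliferating cultures, with no overlap. Its difference of 0.99 ± 0.47 did not pass (limma adjusted p = 0.380, or 0.106 in the random-mouse fit). The desaturases Scd1 and Scd2 had differences of 0.75 and -0.99, and the regulator Mlxipl 0.64, and none passed. The list's median was 0.26, beside 0.20 for all features.

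Klf9 belongs to a family of which the array named 9 other Krüppel-like genes and 3 Sp genes. Klf5, a regulator of growth and differentiation in several tissues, had 15.3, 19.1 and 14.5 in differentiated and 8.03, 4.73 and 4.84 in proliferating cultures. Its difference was 1.51 ± 0.43 (group-only SE). It rose in the random-mouse fit (limma adjusted p = 0.0233, and 0.141 with group alone), the 1 of these 12 genes to pass in any of the 3 fits, beside 5.07% of all features that rose in that one. Klf13, Klf3 and Klf4 had differences of 1.41, 1.17 and 1.15, each higher in 3 of 3 mice, and Klf15 had 0.83. Klf12 and Klf10 had 0.23 and 0.05, and Klf2 and Klf7 had -0.76 and -1.08. The 12 ranged from -1.08 for Klf7 to 1.53 for Sp4, with a median of 0.53, beside 0.20 for all features.

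Of 18 measured enzymes of the Hsd and related dehydrogenase families other than Hsd11b1, 0 passed with group alone. Hsd17b12, which elongates fatty acids, had 9.25, 3.15 and 4.76 in differentiated and 18.8, 10.3 and 15.8 in proliferating cultures. Its difference was -1.49 ± 0.53 (group-only SE), and it fell in the random-mouse fit (limma adjusted p = 0.0350, and 0.240 with group alone). It was 1 of 18 to fall in that fit, beside 5.28% of all features. The other 17 did not pass in any of the 3 fits, and 6 of the 18 had mean intensities below 0.179 in both groups. The median difference was 0.19, beside 0.20 for all features.

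Over the 7 lists together, 108 genes were measured besides the 3. With group alone 0 of the 108 passed, although 22 had an unadjusted limma p under 0.05, and 1 passed in the fixed-mouse fit. In the random-mouse fit 12 rose, or 11.1%, and 3 fell, or 2.78%, beside 5.07% and 5.28% of all features. The groups did not overlap for 23 genes higher and 12 lower in differentiated cultures, or 21.3% and 11.1%, beside 10.9% and 9.8% of all features with 6 values. Unlike that background, the 108 include Sp1 and Abcb1a, which lack a value on the proliferating array of mouse 3. Sp1 is among the 12 lower. The median log2 difference was 0.22, beside 0.20 over all features. Among the 108, Crym and Ucp3 had differences over 3, that of Ucp3 with all proliferating values below 0.179.

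**Figure D3:**
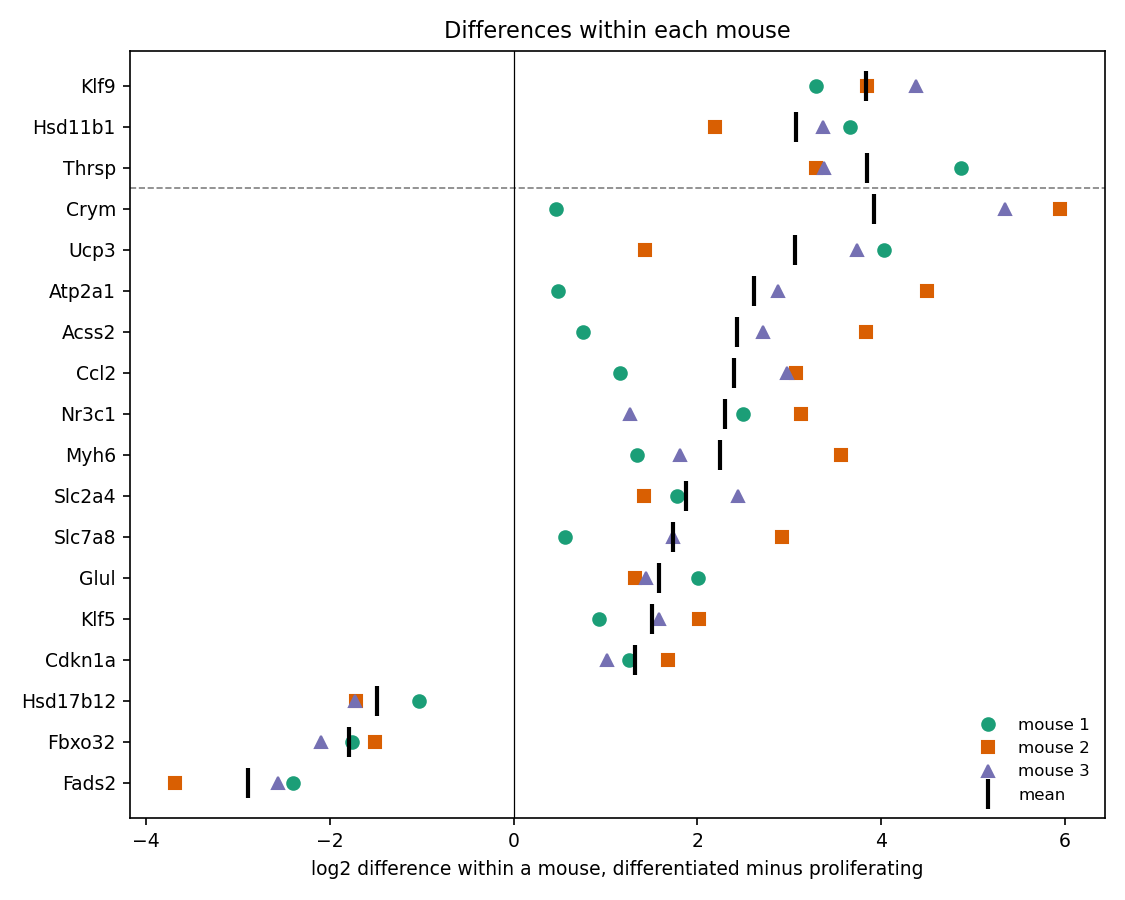
Log2 difference between the differentiated and the proliferating culture of each mouse, with black ticks at the mean, for Klf9, Hsd11b1 and Thrsp above the dashed line and for the 15 other pathway genes that passed in the random-mouse fit below it. All points of a gene lie on the same side of 0. Mouse 1 lies near 0 for Crym, at 0.46, for Atp2a1, at 0.48, and for Slc7a8, at 0.56.

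The genes whose profile over the 6 arrays lay nearest to each of the 3 were found by the root-mean-square distance between log2 profiles, each centred on its own mean, among 6122 named genes. This measure takes in the difference between groups as well as the differences among mice. Nearest to Klf9 were Rbfox1 (0.59), Dusp8 (0.63), Snap91 (0.66), Shroom3 (0.68) and Fgf7 (0.69), where the median gene lay at 1.94. Rbfox1 had 9.12, 13.6 and 7.36 in differentiated and 1.49, 1.64 and 1.18 in proliferating cultures, with mouse 2 highest in each group as for Klf9. Nearest to Hsd11b1 were Phkg1 (0.38), Stmn4 (0.43), C1qtnf4 (0.45), Snrpn (0.49) and Prkcq (0.51), with the median gene at 1.62. Phkg1 had 1.52, 0.546 and 1.21 in differentiated and 0.125, 0.160 and 0.102 in proliferating cultures, and mouse 2 was lowest among its differentiated cultures and highest among its proliferating ones, as for Hsd11b1. Nearest to Thrsp were Prkcq (0.43), Phkg1 (0.59), Cox7a1 (0.61), Fgf9 (0.62) and Gyg (0.63), with the median gene at 1.94. Prkcq had 1.39, 0.598 and 0.912 in differentiated and 0.104, 0.0760 and 0.111 in proliferating cultures, and mouse 1 was highest and mouse 2 lowest among its differentiated cultures, as for Thrsp. Klf9 lay at 0.64 from Hsd11b1 and at 0.68 from Thrsp, and Hsd11b1 at 0.64 from Thrsp. All 3 were chosen on the same group difference, which this measure includes, so nothing is read from their distances to each other. The lists for Hsd11b1 and Thrsp shared Phkg1 and Prkcq, and neither shared a gene with the list for Klf9.

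**Figure D4:**
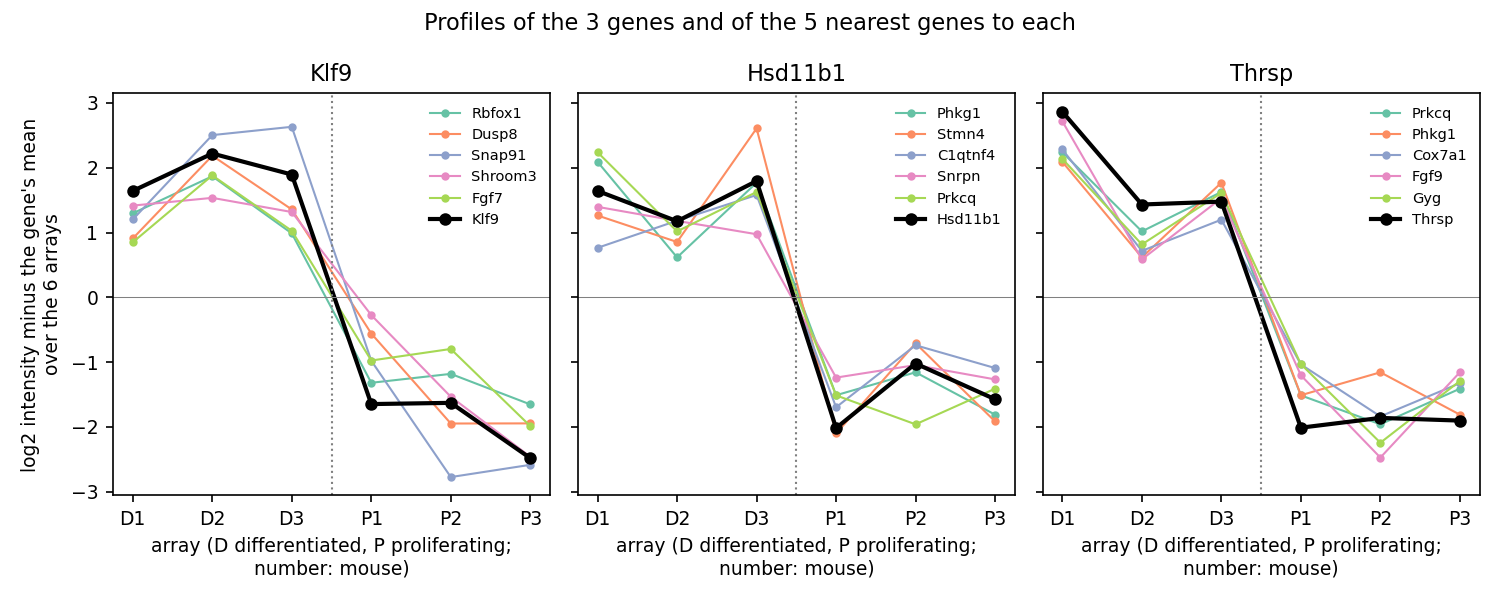
Log2 intensity minus each gene's own mean on the 3 differentiated (D) and 3 proliferating (P) arrays, for Klf9, Hsd11b1 and Thrsp in black and the 5 nearest genes to each in colour. Lines only guide the eye. Klf9 peaks in mouse 2 and Thrsp in mouse 1 among differentiated cultures. The nearest genes lie at distances of 0.59 to 0.69 from Klf9, 0.38 to 0.51 from Hsd11b1 and 0.43 to 0.63 from Thrsp.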

How the data were processed

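Intensities of 10500 features on 6 one-colour CodeLink arrays were used as deposited. The deposited intensity values are linear with array medians of 0.883 to 0.939, and include values at or under 0. Per the labels' protocols, bacterial mRNAs were amplified in parallel as controls to normalize intensity. How the scanner's signals were background-corrected and scaled is not stated in the labels, and precision is limited by the number of arrays. The platform annotation gave 1 symbol for 6373 features, and every one was found in the RefSeq table of GRCm38.p6 through its Entrez ID.

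A floor of 0.0236 (percentile 1 of the positive values) was set under low values, and log2 was taken with no further scaling. limma 3.58.1 (lmFit and eBayes, R 4.3.3) fitted group alone to the 10186 features with at least 2 values per group. Its p-values were adjusted over all of them by Benjamini-Hochberg, with a threshold of 0.05. No analysis method was stated, so the fit without mouse came first. Every mouse gave both cultures, per the series design, and the 2 arrays of each number had residuals from the group means that correlated across features (0.42, 0.37 and 0.28). Fits with mouse as a fixed block and as a random effect (duplicateCorrelation, correlation 0.535) are given beside it. The group-only p-values rest on the spread between cultures within a group. Those of the fixed-mouse fit rest on the spread of the within-mouse differences. The random-mouse fit uses a shared correlation within mice. All of them moderate variances across features (eBayes) and cover only these 3 mice.

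The 3 genes, the 12 lists and the tests were chosen with earlier results of these data known. The lists count 1 feature per gene, the one with the highest mean. Text named the 3 genes, the 5 nearest genes to each, every list gene past the threshold, a fixed panel of hormone pathway genes where the array named them, and the gene with the smallest p of a list without a call. Genes passing with mouse as a random effect, and marker, chaperone and transporter genes outside this rule, were chosen after their values were seen. Of 191 pathway list genes 108 had values, and the others, among them Thra, Thrb and H6pd, were not analysed here. The fits were tested on simulated data. Alternatives covered the floor, a pseudocount, scaling, the mouse block, dim features, the threshold, features with missing values, the variance prior, the feature per gene, and leaving out each array or mouse. Tables and figures were made in Python 3.11.15.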

Additional observations from a re-analysis of the deposited data

How the results depend on the processing

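Klf9, Hsd11b1 and Thrsp were chosen on this contrast, and their groups do not overlap. Leaving out arrays or changing the floor or pseudocount could thus not turn a sign. The differences of the 3 genes kept their sign under every alternative run, and nothing is read from this. A floor at the 10th percentile, quantile normalization, median centring and mouse as a replicate block moved them by less than the spread between replicates. The pseudocount of 0.179 lowered them to 2.99, 2.65 and 2.38. Leaving out arrays gave 2.78 to 3.51 for Hsd11b1. Each gene has 1 feature, so no other feature could be tried. The count of 132 features called became 243 with a floor at the 10th percentile, 393 (127 higher, 266 lower) with the pseudocount, 201 after quantile normalization, 415 without the dimmest features (6790 tested), 388 with a trended and robust prior, 1054 with mouse as a random effect, and 0 at an adjusted p under 0.01 (1519 at an unadjusted limma p under 0.05). Leaving out arrays gave 0 to 179. The counts of list genes called, all 0 with group only, became 1 for receptor and steroid access (floor, pseudocount, dim features, prior, random effect). For glucocorticoid-responsive genes they became 1 (floor, pseudocount, dim features, prior) and 4 (random effect). For thyroid hormone transport and partners there were 2 (random effect), and 0 to 1 on leaving out arrays. For thyroid hormone-responsive genes there were 1 (prior) and 4 (random effect). For fatty acid synthesis there were 1 (floor, pseudocount, dim features, prior, fixed replicate block), 2 (random effect) and 0 to 1 on leaving out arrays. Krüppel-like and Sp factors had 1 (pseudocount, random effect), and dehydrogenases 1 (random effect). The cause of these moves was not tested. With 15 of 108 list genes passing under the random effect and 1 under the fixed replicate block, calls in these lists depend on how mouse is modelled. Signs turned for 10 uncalled genes. The Dio1 difference, -0.23, became 0.18 with the higher floor and 0.030 with the pseudocount, and that of Klf10, 0.05, became -0.0066 after quantile normalization. On leaving out arrays the ranges were -0.31 to 1.14 for Hsd11b2, -0.69 to 0.011 for Fkbp5, -0.44 to 0.16 for Sgk1, -0.15 to 0.36 for Foxo1, -1.23 to 0.32 for Dio1, -0.71 to 0.22 for Dio2, -0.40 to 1.27 for Mlxipl, -1.35 to 0.035 for Klf2, -0.15 to 0.34 for Klf10 and -0.0090 to 0.45 for Klf12. Of the 3 genes, Thrsp had its difference lowered most by the pseudocount, and all 3 of its proliferating values lie under 0.179. No background level was used, so the part of background in this was not tested.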
